A study of Homo sapiens with 4 samples.

Results

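Eph receptors and their ephrin ligands were followed across 4 sorted subpopulations of PC14, an established line of human lung carcinoma cells of the non-small-cell type. The set was chosen by name, with earlier results of these data known. It holds 10 genes, set beside the 19775 named on the arrays, with all of their probe sets. The receptors are EPHA1, EPHA2, EPHA4, EPHA7, EPHB2, EPHB3 and EPHB4, and the ligands are EFNA1, EFNB1 and EFNB2. Cells were sorted first by E-cadherin, the epithelial adhesion protein, into high (E+) and low (E-) fractions, and each fraction was sorted again by CD133, a surface protein used to mark stem-like cells, with green fluorescence from a lentiviral reporter under the P1 promoter of the CD133 gene. The 4 subpopulations are E+CD133+, which the labels call epithelial and stem-like, E-CD133+ (mesenchymal, stem-like), E+CD133- (epithelial, non-stem-like) and E-CD133- (mesenchymal, non-stem-like), and runs of 4 signals are given in this order. The reporter stands for CD133 in the second sort, all cells come from 1 line, and the submitters state that genotyping showed the E-cadherin fractions to be homologous. Total RNA of each subpopulation was hybridised to 1 Affymetrix array, so no difference here has a replicate check, and differences are given by their size.

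Eph receptors are receptor tyrosine kinases that bind ephrins held on the surface of neighbouring cells, so signalling mostly needs cell contact. A-class receptors mostly bind ephrins of the A class, which are anchored to the membrane by a lipid, and B-class receptors mostly bind B-class ephrins, which cross the membrane. Binding signals into both cells, and in epithelia the system is known for setting tissue boundaries, cell contact and cell repulsion.

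The largest differences among these genes lay between the E-cadherin sorts and went in opposite directions for a receptor and a ligand. EPHA1, an A-class receptor, was lower in E- than in E+ cells, and EFNB2, the ligand ephrin-B2, was higher, each with CD133 high and with CD133 low. EPHA7 read above background in E-CD133+ cells only. The listed receptors EPHA2, EPHB3 and EPHB4 and the ligand EFNA1 differed by less than 2-fold in every pair of arrays.

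Promoters are printed for the 2 genes that went with the E-cadherin sort in both pairs, because ZEB1, a repressor of the E-cadherin gene, binds the E-box motif CACCTG and was higher in the E- cells (its signals are given with the sort below). Both windows are from RefSeq on GRCh38.p14, run from 250 bases before to 50 bases after the start site and are read 5′ to 3′ on the minus strand. They lie at chr7:143408807-143409106 for EPHA1 and at chr13:106535613-106535912 for EFNB2. Capitals mark the E-box, as CACCTG or as its reverse complement CAGGTG.
EPHA1 promoter: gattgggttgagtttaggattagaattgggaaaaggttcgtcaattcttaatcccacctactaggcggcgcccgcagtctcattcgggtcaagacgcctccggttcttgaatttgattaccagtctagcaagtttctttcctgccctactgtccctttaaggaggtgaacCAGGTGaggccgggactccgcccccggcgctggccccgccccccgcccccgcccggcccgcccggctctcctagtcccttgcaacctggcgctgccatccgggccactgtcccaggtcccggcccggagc
EFNB2 promoter: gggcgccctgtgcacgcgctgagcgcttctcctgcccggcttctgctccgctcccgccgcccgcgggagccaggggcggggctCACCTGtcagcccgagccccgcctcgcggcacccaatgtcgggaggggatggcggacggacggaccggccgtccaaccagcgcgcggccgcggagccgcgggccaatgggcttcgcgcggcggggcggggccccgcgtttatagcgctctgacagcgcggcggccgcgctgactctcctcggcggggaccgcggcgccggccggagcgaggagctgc
The EPHA1 window holds CAGGTG starting 80 bases before the start site, and the EFNB2 window holds CACCTG starting 167 bases before it. All 10 genes matched at least 1 promoter window, and 4 of them, EPHA1, EFNB2, EPHA7 and EPHB2, hold the motif on either strand in at least 1. Among all 27305 genes with a window of this length, 24.1% hold it. The motif stands in the promoter of a gene that was lower and of one that was higher, and a match of letters is a description, not a binding site.

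Signals are the deposited MAS5 intensities per probe set. The values of different probe sets are not compared in level, because each probe set has its own brightness. Without detection calls, the median signal of an array, 53.7 to 60.3 over the 4 arrays, was taken as its floor. Signals under it were raised to it, a pair with 1 array at the floor gives a bound ("at least"), and a pair with both arrays at the floor gives no ratio and was entered as a log2 ratio of 0. A gene was represented by its brightest probe set (highest mean log2 signal over the arrays) and counted when it was at least 2-fold higher, or lower, in both pairs of arrays that differ in 1 sorted marker. Of the 19775 genes, 14083 were measured, that is, above the floor on at least 1 array.

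The sort could be read from CDH1, the gene for E-cadherin, at 5548, 347, 3546 and 528, and from ZEB1 at 168, 1301, 64.8 and 1056. PROM1, the gene for CD133, lay below the floor on all arrays, at 4.79 to 29.7, and gave no measure of the second sort. Of the epithelial markers, EPCAM, KRT8, KRT18 and CDH1 were above the floor on all 4 arrays and KRT19 on none. Of markers of other cells, VWF, CDH5 and KDR (endothelium), CD14 (monocytes), PDGFRA and PDGFRB (fibroblasts) and GFAP (glia) were below it on all arrays, while PECAM1, PTPRC, COL1A1, COL3A1, MAP2 and TUBB3 were above it on all. RNA quality, as the ratio of actin signal at the 3' end to that at the 5' end, was 1.53 to 1.59 on the other arrays and highest for E-CD133+, at 1.78.

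Of the 10 listed genes, 9 had at least 1 probe set and 21 probe sets in all. No probe set carries the name EPHB2 in the annotation used, so this receptor was not analysed here. Of the 21 probe sets, 6 lay above the floor on all 4 arrays, 5 on some and 10 on none. By their brightest probe set, 7 genes were measured. The other 2 were EPHA4, a receptor that binds ephrins of both classes, and EFNB1, the ligand ephrin-B1. All 5 probe sets of EPHA4 were below the floor on every array, with a highest signal of 52.8, and the only probe set of EFNB1 read 5.71 to 29.0.

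**Figure D1:**
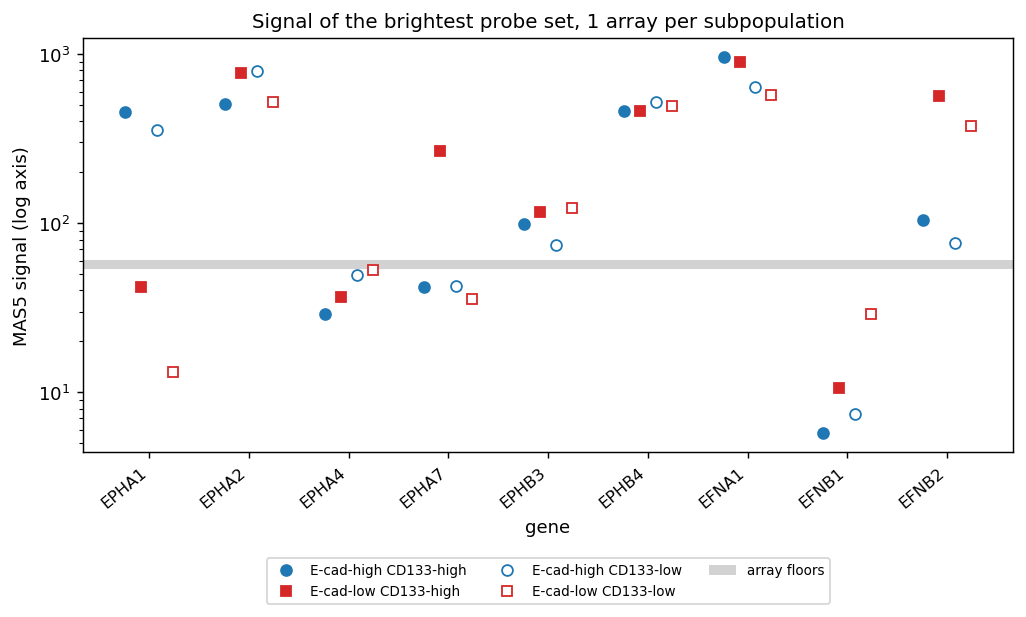
Signal of the brightest probe set (vertical log axis, MAS5 intensity) of the 9 listed genes with a probe set, 1 point per array: circles are E+ and squares E- cells, filled for CD133 high and open for CD133 low, and the grey band spans the 4 array floors of 53.7 to 60.3. EPHA1 has both circles above the band and both squares below it, EFNB2 has both squares at 374 and 567 and both circles at 75.8 and 104, and EPHA7 has 1 filled square above the band.

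EPHA1 was lower with low E-cadherin. Its brightest probe set, 205977_s_at, read 454, 42.0, 358 and 13.1. Both E- arrays were below their floors and both E+ arrays well above. The difference was at least 7.54-fold with CD133 high and at least 6.27-fold with CD133 low. The probe set 241482_at gave the same order, with 130.2, 48.6, 169 and 43.2, at least 2.16-fold and at least 2.96-fold lower. The third probe set, 215804_at, was below the floor on all 4 arrays. With the mean over the 3 probe sets, which takes in that dim one, EPHA1 had log2 ratios of -0.41 and -0.38 and was no longer counted. With the floor at the 65th percentile the log2 ratios were -1.48 and -1.27.

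By CD133, EPHA1 did not have 1 direction: the log2 ratio of E+CD133+ over E+CD133- was 0.35 by the first probe set and -0.38 by the second, and E- cells gave no ratio. EPHA1-AS1, the antisense gene beside it, was below the floor on all arrays by both of its probe sets. ZYX, the measured gene next to EPHA1 on chromosome 7, which codes for a focal adhesion protein, had E-cadherin log2 ratios of 0.49 and -0.58 and was not counted. The summed signal of the 5 epithelial markers, CDH1 among them, moved with EPHA1, at 29506, 15603, 31065 and 15134, and their part in the result was not tested.

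EFNB2 was higher with low E-cadherin. Its brightest probe set, 202668_at, read 104, 567, 75.8 and 374. All 4 signals were above the floor, and both E- arrays were above both E+ arrays. The ratios of E- over E+ were 5.44-fold with CD133 high and 4.93-fold with CD133 low. The other probe set, 202669_s_at, read 6.33, 93.9, 37.4 and 48.9 and exceeded the floor only in E-CD133+ cells, which is at least 1.75-fold in that pair and no ratio in the other. In the pair with CD133 low, the log2 ratio of EFNB2 was 2.30, and 1.32 with the floor at the 65th percentile or 1.24 with the mean over probe sets.

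With CD133, EFNB2 had log2 ratios of 0.46 in E+ and 0.60 in E- cells, both under 2-fold. ARGLU1, its nearest measured neighbour on chromosome 13, had E-cadherin log2 ratios of 0.36 and 0.18. Some markers of other cells moved with EFNB2 and others did not. Of the 4 neural markers, MAP2 alone was higher in E- cells by a wide margin in both pairs, at 119, 1886, 135 and 3178. TUBB3 stayed at 10133 to 11358, and GFAP was below the floor on all arrays. RBFOX3, at 45.3, 79.4, 112 and 42.6, was higher in E- cells with CD133 high and lower with CD133 low. The summed signal of the list was 10533, 12386, 11644 and 13356. The 4 mesenchymal markers summed to 12735, 21612, 1923 and 14079, nearly all of it VIM. VIM and ZEB1 were higher in E- cells in both pairs. FN1 went the other way, at 91.5, 69.3, 94.8 and 42.6, and CDH2 was below the floor on all arrays. The part of these neural and mesenchymal markers in the EFNB2 result was not tested. In these bulk samples, a change in the number of cells that express a gene and a change in RNA per cell cannot be told apart.

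In the E-cadherin comparison, 2 of the 7 measured listed genes were counted, where 1.02% of all measured genes were. Of these, 1 was higher, where 0.476% were, and 1 was lower, where 0.54% were. The list was made with earlier results of these data known, so its counts and places are a description and not a test. Ordered by the smaller of its ratios, EFNB2 stood at place 9 of the 67 genes counted as higher, and EPHA1 at place 4 of the 76 counted as lower (51 higher and 89 lower with equal array medians). With CD133 high taken alone, 2 of the 7 were past 2-fold higher (EFNB2 and EPHA7) and 1 lower, beside 3.81% and 2.53% of all measured genes. With CD133 low, 1 was higher and 1 lower, beside 2.63% and 2.87%. The median log2 ratio of the 7 genes was 0.24 with CD133 high and -0.08 with CD133 low, beside 0.00 and 0.00 over all measured genes. An additive limma fit of both markers took its error from the mismatch between the pairs, moderated by that over all measured genes. The fit called EPHA1 lower and did not call EFNB2, and without a trend of the variance on signal it called neither.

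**Figure D2:**
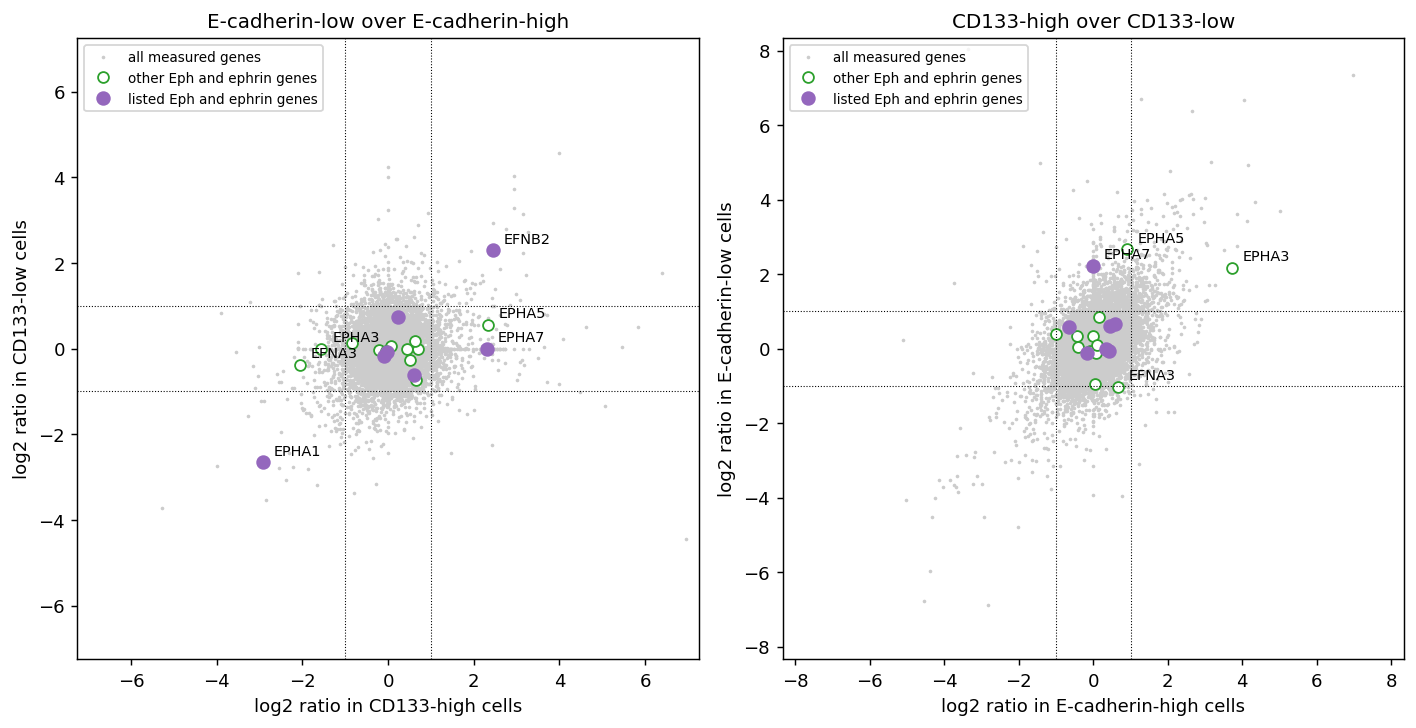
Log2 ratios of all 14083 measured genes (grey) in both pairs of the E-cadherin comparison (left; low over high) and of the CD133 comparison (right; high over low), with listed Eph and ephrin genes filled, other genes of the family open, and dotted lines at 2-fold. EFNB2 (2.44, 2.30) and EPHA1 (-2.91, -2.65, bounds) lie past 2-fold on both axes at left, EPHA3 (3.71, 2.17, bounds) at right, and EPHA5 and EPHA7 past it on 1 axis in each plot.

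Profiles over the 4 arrays were compared by the distance between log2 signals, raised to the floor and centred on each gene's own mean. The genes most like EPHA1 were TC2N (distance 0.47), CDH1 itself (0.79) and the desmosomal cadherin DSC2 (0.81). TC2N read 440.3, 75.9, 537 and 78.2. For EFNB2 the nearest were the cadherin CDH10 (0.45), the adhesion protein AMIGO2 (0.53) and the fibrillar collagen COL11A1 (0.57). CDH10 read 129, 493, 95.7 and 461. These distances rest on 4 values per gene and have no test. Both E- values of EPHA1 and both E+ values of AMIGO2 (12.6 and 15.9 before) were set to the floor, which can make profiles look closer.

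EPHA7, an A-class receptor, followed neither marker alone. By 229288_at it read 41.7, 267, 42.2 and 35.5. Only E-CD133+ was above its floor, at least 4.97-fold over its E+ partner and at least 4.68-fold over its CD133- partner. The probe set 238533_at, at 33.0, 89.6, 18.9 and 18.5, was again above the floor on that array only, and the remaining 2 probe sets stayed below it on all arrays. EPHA7 was the 1 listed gene at least 2-fold above each other array in E-CD133+ cells, where 1.73% of all measured genes were. No listed gene was so in E+CD133+, E+CD133- or E-CD133- cells, where 0.511%, 0.27% and 0.476% were. The same array had the highest actin ratio and, of the 5 fibroblast markers, the highest COL1A2, at 435 against 18.6 to 65.1, while the summed signal of that list was 31427, 22172, 24445 and 17615. Their part in the EPHA7 result was not tested. With the floor at the 65th percentile the log2 ratios of EPHA7 were 0.81 and 0.85, and with the mean over its 4 probe sets it gave no ratio in either pair.

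EPHA2, an A-class receptor much studied in carcinomas, read 506, 776, 789.6 and 518. The high values were those of E-CD133+ and E+CD133- cells, so neither sort separates the arrays, and the E-cadherin log2 ratios were 0.62 and -0.61. EFNA1, the A-class ligand ephrin-A1, which binds EPHA2, read 960.1, 894, 641 and 570.0. Both CD133+ arrays were above both CD133- arrays, with log2 ratios of 0.58 and 0.65, under 2-fold, and the E-cadherin log2 ratios were -0.10 and -0.17.

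The measured B-class receptors, which bind ephrin-B2 among others, gave no counted difference. EPHB4, the main partner of ephrin-B2 in blood vessels, read 463, 459, 524 and 495, with E-cadherin log2 ratios of -0.01 and -0.08. By its probe set 216680_s_at it read 92.3, 136, 85.6 and 138, with log2 ratios of 0.56 and 0.68, so the 2 probe sets disagree in size and direction while both stay under 2-fold. EPHB3, another B-class receptor, read 98.9, 117, 74.4 and 123. Its E-cadherin log2 ratios were 0.24 and 0.73, and its other probe set was below the floor on all arrays.

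**Figure D3:**
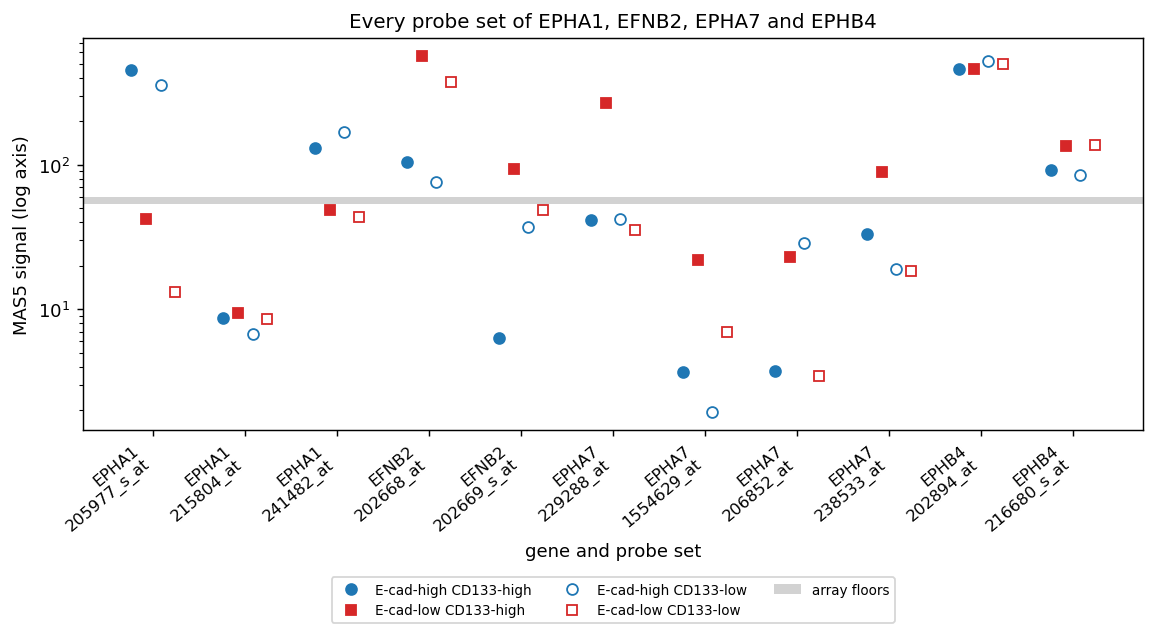
Every probe set of EPHA1, EFNB2, EPHA7 and EPHB4 (vertical log axis, MAS5 signal; 1 point per array, symbols by subpopulation, grey band the array floors). Both EPHA1 probe sets that reach above the band put both E+ arrays above it and both E- arrays below; for EFNB2 the brighter probe set separates the sorts and the dimmer one is above the band on 1 array, at 93.9.

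In the CD133 comparison, 0 of the 7 measured listed genes were counted, where 3.57% of all measured genes were, 2.45% higher and 1.12% lower. In E+ cells taken alone, 0 of the 7 were past 2-fold higher and 0 lower, beside 5.04% and 3.24% of all measured genes. In E- cells EPHA7 alone was past 2-fold higher and 0 lower, beside 8.11% and 4.27%. The medians of the 7 genes were 0.35 in E+ and 0.58 in E- cells, against 0.00 and 0.00 over all measured genes. Both comparisons are made from the same 4 arrays.

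The rest of the family, 12 genes with 29 probe sets, was measured in full by the brightest probe sets, 6 of them on all 4 arrays. In the E-cadherin comparison 0 of the 12 were counted, beside 1.02% of all measured genes. In the CD133 comparison 1 was higher, EPHA3, and 0 were lower, beside 2.45% and 1.12%. EPHA3, an A-class receptor, read 753, 257, 4.72 and 5.00 by 206070_s_at. Both CD133- arrays were far below the floor, and the difference was at least 13.1-fold and at least 4.50-fold. It stood at place 35 of 345 genes counted as higher. Its other 2 probe sets were below the floor on all arrays, so without probe sets marked as shared, or with the mean over probe sets, EPHA3 was not counted. With the floor at the 65th percentile the second ratio fell under the threshold, at a log2 of 0.79.

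Of the markers of leukocytes, PTPRC alone went the same way as EPHA3, at 1246, 1102, 346 and 505. The list of 5 has 3 genes with a probe set, with summed signals of 1283, 1165, 414 and 534. Nearly all of the sum is PTPRC, which was above the floor on all 4 arrays. CD14 was below it on all. CD3E, at 29.2, 59.4, 62.5 and 19.2, was above it only in E+CD133- cells, where EPHA3 was below it. The part of such cells in the EPHA3 result was not tested.

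EFNB3, the ligand ephrin-B3, gave 2 answers. By 210883_x_at, the brightest by mean log2 signal and so the one counted, it read 168, 161, 157 and 150.1, CD133 log2 ratios of 0.10 and 0.10. By 205031_at it read 459, 482, 111 and 20.8, 4.12-fold higher with CD133 high in E+ cells and at least 8.45-fold in E- cells. Without shared probe sets and with the mean over probe sets EFNB3 was counted as higher with CD133 high, the 1 gene of these 12 counted under either.

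EPHA5, an A-class receptor, was highest on the same array as EPHA7. It read 171, 859, 91.7 and 135. The second value was 5.03-fold above that of the E+ partner and 6.38-fold above that of the CD133- partner, while the other 2 pairs had 1.47-fold and 1.86-fold in the same directions. Its probe set 215664_s_at was above the floor on that array only, at 160.5. With the mean over probe sets, the log2 ratio of EPHA5 over the E+ partner was 1.28 in place of 2.33, and that over the CD133- partner was 1.27 in place of 2.67. The CD133 log2 ratio in E+ cells was 0.90, but 0.19 with the floor at the 65th percentile and -0.01 with the mean over probe sets.

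Among the A-class ligands of this group, EFNA3, ephrin-A3, read 249, 60.1, 159 and 122. It was lowest on that array, just under the floor, at least 4.13-fold lower than in the E+ partner, with an E-cadherin log2 ratio of -0.38 where CD133 was low. EFNA4, ephrin-A4, at 539 to 628, and EFNA5, ephrin-A5, at 600.3 to 853, differed by less than 2-fold in all pairs. EFNA1, EFNA3 and EFNA4 are neighbours on chromosome 1, and EFNA3 was the 1 of the 3 past 2-fold in any pair. Under the floor at the 65th percentile EFNA3 was past it in none, with log2 ratios of -0.62 for E-cadherin with CD133 high and 0 for CD133 in E- cells.

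**Figure D4:**
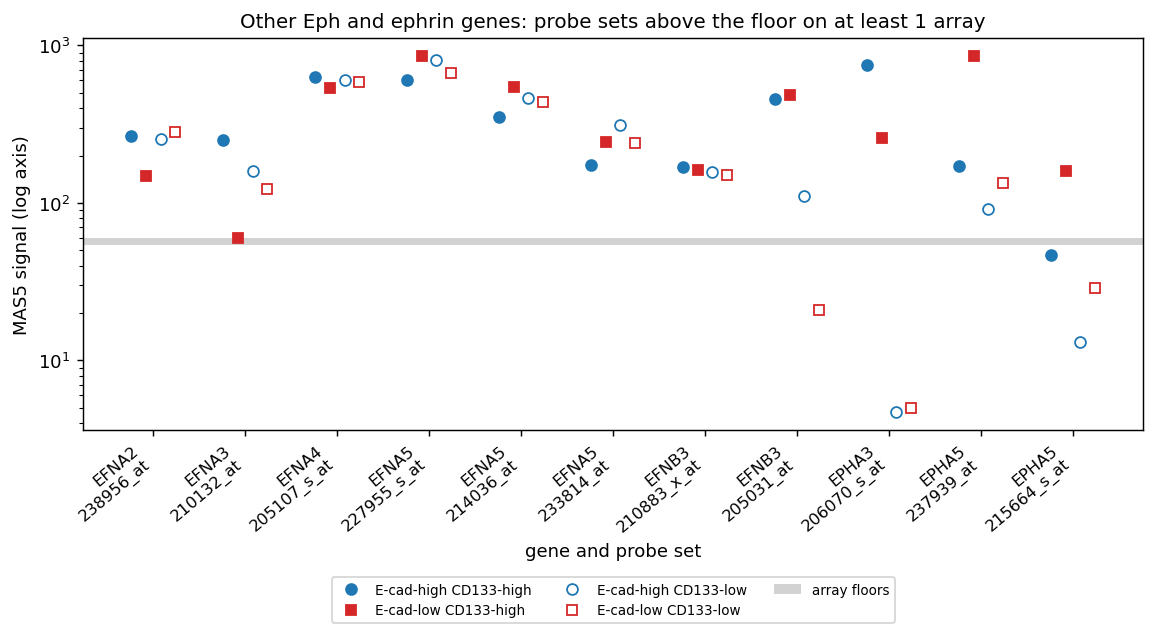
Probe sets above the floor on at least 1 array of 7 further family genes (vertical log axis, MAS5 signal; 1 point per array, symbols by subpopulation, grey band the array floors). EPHA3 has both filled symbols above the band and both open ones at 5.00 or less, EFNB3 separates filled from open symbols by 205031_at but not by 210883_x_at, and EPHA5 has its filled square highest by both probe sets.

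Genes that act next to Eph receptors or ephrins were mostly not counted. Of 50 adaptors, kinases, exchange factors and other proteins on the list, 46 had a probe set and 45 were measured. In the E-cadherin comparison 1 was higher, 0 lower and 44 neither, beside 0.476% and 0.54% of all measured genes. The 1 was GRIP1, a scaffold protein whose PDZ domains bind the tails of B-class ephrins. It read 166, 462, 113 and 265, 2.78-fold and 2.34-fold higher in E- cells, by its only probe set above the floor. It was not counted with the mean over probe sets, under a floor at the 65th percentile or by the limma fit.

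In the CD133 comparison 2 of the 45 were lower, 0 higher and 43 neither, beside 1.12% lower and 2.45% higher among all measured genes. CHN1, a Rac GTPase-activating protein that acts downstream of EPHA4, read 250.2, 307, 1978 and 3833, 7.91-fold and 12.5-fold lower with CD133 high. GRB10, an adaptor that binds activated receptor kinases, read 81.6, 244, 974 and 1074, 11.9-fold and 4.41-fold lower. For each gene both CD133+ arrays were below both CD133- arrays. The share of all measured genes with such a separation is not given, for these or for the genes above. All 3 GRB10 probe sets above the floor were lower with CD133 high, 2 of them past 2-fold in both pairs. CHN1 has only 1 probe set, which is marked as shared, so without such probe sets it had no value and was not counted. The medians of the 45 genes were 0.18 and -0.10 for E-cadherin and -0.11 and 0.13 for CD133.

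Other guidance cues, the semaphorin, slit and netrin systems, were set beside the family. Of 35 genes 28 were measured. For E-cadherin 1 was lower and 0 higher, beside 0.54% and 0.476% of all measured genes. For CD133 3 were higher and 0 lower, beside 2.45% and 1.12%. UNC5C, a netrin receptor, is in both counts: it read 2187, 1044, 929 and 376. The slit receptor ROBO2 read 3288, 4395, 833 and 293, and the semaphorin SEMA3A 1811, 2695, 875 and 206. The second probe set of UNC5C above the floor, 206189_at, read 560.4, 313, 277 and 139.6 and was lower in E- cells by under 2-fold in both pairs. With the mean over probe sets, UNC5C and SEMA3A were not counted.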

How the data were processed

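Total RNA of 4 sorted PC14 subpopulations was measured on 1 Affymetrix array each. The deposited values are linear intensities per probe set. Per the submitters' processing notes the tool was MAS5, with no version stated. The mean intensity of each array, trimmed by 2% at both ends, was 500.1.

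Of 54675 probe sets, 62 were controls, 41097 had 1 gene symbol, 1801 had several and 11777 had none here. Only those with 1 symbol were used. Each array's floor was the 50th percentile of its probe sets other than controls. All listed genes were named with every probe set. Of the rest of the family, counted genes and the 4 of highest signal on any array were named (EPHA3, EPHA5, EFNA4 and EFNA5), and EFNB3 and EFNA3 were added after their values were seen. Of the other lists, counted genes were named, and for each counted listed gene the 3 genes with the nearest profile. The listed genes and the other lists were chosen with earlier results of these data known. The counting was tested on simulated data, with changes planted only in genes whose mean signal lay well above the floor. Counts that rest on bounds, such as those of EPHA1 and EPHA3, were not covered by it.

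Alternatives tried were equal medians, quantile normalization, fold thresholds of 1.5 and 3, a floor at the 25th or the 65th percentile or none, the mean over probe sets, leaving out probe sets marked as shared (IDs ending in _s_at, _x_at or _a_at), and an additive limma fit. The fit without a trend of variance on signal was added after seeing the data. Python 3.11.15, numpy 2.4.6, pandas 2.3.3, matplotlib 3.10.9, R 4.3.3 and limma 3.58.1 were used. With 1 array per subpopulation, the number of arrays limits the precision.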

Additional observations from a re-analysis of the deposited data

Results flagged for a closer look

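Some genes of the family had log2 ratios of opposite sign in the 2 pairs of a comparison, and these differences were not tested. The E-cadherin ratio with CD133 high minus that with CD133 low was 1.22 for EPHA2 (0.62 and -0.61), 1.38 for EPHB6 (0.65 as a bound and -0.73), -0.98 for EFNA2 (-0.84 and 0.14) and 0.78 for EFNA5 (0.51 and -0.27). All 3 EFNA5 probe sets above the floor had that order of signs. The CD133 ratio in E+ minus that in E- cells was 0.48 for EPHB3 (0.41 and -0.07), -0.46 for EPHA10 (-0.41 as a bound and 0.04), 1.67 for EFNA3 (0.65 and, as a bound, -1.02) and 0.19 for EFNA4 (0.06 and -0.13). With 1 array per subpopulation, no spread stands beside these values.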

How the results depend on the processing

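EFNB2 and EPHA1 were counted, in the same direction, under quantile normalization, equal array medians, no floor, both other floors, both other fold thresholds and without shared probe sets. EFNB2 was also counted with the mean over probe sets. With the mean over probe sets, 0 listed genes were lower with E-cadherin low, and the limma fit called 0 higher with the trend and, without it, 0 higher and 0 lower. Of the other family genes, the number counted for CD133 went from 1 to 0 with the floor at the 65th percentile and by the fit without the trend, and to 2 at 1.5-fold. Of the signalling genes, the number for CD133 went from 2 to 7 at 1.5-fold and to 1 by the fit without the trend. It was also 1 without shared probe sets, where CHN1 had no probe set left. For E-cadherin the number of signalling genes went from 1 to 2 at 1.5-fold. It went to 0 at 3-fold, with the mean over probe sets, by both limma fits and under the higher floor, at the 65th percentile. Of the other guidance cues, the number for CD133 went from 3 to 7 with no floor or the floor at the 25th percentile, to 5 at 1.5-fold, to 1 at 3-fold or with the mean over probe sets, and to 0 by the fit without the trend; for E-cadherin it went from 1 to 4 with no floor, to 2 with the floor at the 25th percentile, to 3 at 1.5-fold, and to 0 at 3-fold, with the mean over probe sets and by both limma fits. The causes were not tested, beyond the fewer genes passed by a higher floor or threshold. Over all genes, no floor gave 676 higher and 503 lower for E-cadherin among 19775 genes, against 67 and 76. The floor at the 25th percentile gave 335 and 241, that at the 65th 34 and 51, 1.5-fold 250 and 258, and 3-fold 18 and 13. For CD133 the main counts were 345 and 158, against 904 and 705 with no floor, 626 and 362 and 222 and 114 with the lower and higher floor, 933 and 554 at 1.5-fold and 95 and 61 at 3-fold. The limma fit called 9 higher and 12 lower for E-cadherin and 185 and 104 for CD133, and without the trend 0 and 0, and 27 and 28. Equal array medians gave 51 higher and 89 lower for E-cadherin and moved the median of all measured genes to -0.12 with CD133 high. With 1 array per subpopulation there were no replicates to pair. The additive limma fit, which takes the other marker as a block, has 1 residual degree of freedom. Signals near the floor limit EPHB3, EPHA7 and the E+ values of EFNB2, and EPHA4 and EFNB1 lay below it on all arrays.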
